A study of Mus musculus with 12 samples.

Results

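Genes of the pre-mRNA splicing machinery were followed in mouse thymocytes with and without the Mediator subunit MED23 and with and without stimulation through CD3. The genes were those whose platform symbol named an SR protein (Srsf), a heterogeneous nuclear ribonucleoprotein (Hnrnp), a small nuclear ribonucleoprotein (Snrp), a subunit of the SF3A or SF3B complexes, a U2AF subunit or a numbered Prpf factor. This gave 52 of the 8251 genes with a single symbol on the array, each read by the probe set with the highest mean signal over the 12 arrays. They comprised 9 SR protein genes, 16 hnRNP genes, 4 genes of the Sm core, 2 of the U1 snRNP, 10 of the U2 snRNP, 3 of U2AF and 8 Prpf genes. The probe set of Prpf39 stayed under a mean signal of 100 in every condition, with signals of 34.6 to 109, so that 51 genes were tested by their chosen probe sets. Of the 19 probe sets of these genes that were not chosen, 17 passed the filter, and none was called in any comparison. Among the chosen probe sets past the filter, 9 carry a suffix for family or shared probes or for relaxed probe selection. They read Srsf2, Srsf3, Hnrnpdl, Snrpb, Snrpe, Snrp1c-ps2, Sf3a2, Sf3b2 and Snrpb2.

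MED23 null mice were Med23flox/flox;Lck-Cre, and the controls were Lck-Cre mice, which carry the transgene on a Med23+/+ background, and Med23flox/flox mice without Cre. There were 2 mice of each genotype, all female, C57Bl/6 x 129Sv (F1) and 6 to 7 weeks old. Total thymocytes of each mouse spent 4 h at rest and the next 3 h with plate-bound anti-CD3 antibody (αCD3) or without it (mock), with 1 array for each mouse and treatment. Lck-Cre removes floxed Med23 sequence in the T lineage only, so other cells of the thymus keep the gene, and in these bulk samples fewer cells of a type and less RNA per cell cannot be told apart.

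Splicing is carried out by the spliceosome, whose small nuclear RNAs are packed by a ring of Sm proteins. The U1 snRNP binds the start of the intron, U2AF and the U2 snRNP bind its end and branch point, and Prpf factors help to assemble and rearrange the catalytic core. SR and hnRNP proteins bind exons and introns and shift splice site choice, and T cells are known to switch isoforms such as those of CD45 through hnRNP L-like proteins when activated. MED23 is known from fibroblasts and embryonic stem cells as the Mediator subunit through which the ETS factor ELK1 activates genes such as Egr1.

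Each level given is a linear MAS5 signal, and each change or difference is a log2 value taken after 50 was added to the signals, which understates changes of weak signals. A signal depends on its probes, so levels were compared between samples and not between genes. The array of αCD3-treated Med23flox/flox replicate 1 stood apart from the others, with a lower quartile of 85.3 against 50 to 58.4 and a mean correlation of 0.905 with the other arrays against 0.937 to 0.945. Med23 itself had signals of 252 and 239 in αCD3-treated MED23 null thymocytes, against 310 to 489 in αCD3-treated controls. In mock-treated cells its signals were 268 and 207 in MED23 null thymocytes and 288 to 424 in controls. None of its 4 differences from a control genotype, −0.64 to −0.42 in mock-treated and −0.71 to −0.48 in αCD3-treated cells, passed the test, and whether its probes lie in the deleted exons was not established. Of 12 listed T cell and thymocyte markers, 11 were on the array and all 11 passed the signal filter. Cd5, a T cell receptor-responsive gene among them, rose by 2.44 with αCD3 over the 6 mice (limma, adjusted p = 0.000717).

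Promoters of the splicing genes were examined for short sequence words because MED23 is known for its link to ETS factors and Egr1. RefSeq (GRCm38.p6) gave 57 promoters for 45 of the genes, each reaching 250 bases before and 50 bases after the start. The ETS word CCGGAAG, on either strand, was in 35.1% of these promoters, in 16.3% of promoters of the genes past the signal filter and in 8.86% of all 32851 promoters. The EGR word GCGGGGGCG was in 8.77%, 5.13% and 2.91% of the same promoter sets. Promoters of 1 gene were counted separately, and the 5 splicing gene promoters with the EGR word belonged to 3 genes. The word TGACG, the core of a cyclic AMP response element, was in 54.4%, 30.0% and 20.8%, the E-box CACGTG in 5.26%, 9.75% and 7.15%, and TATAAA in 8.77%, 9.0% and 13.6%. The splicing gene promoters were also richer in G and C, with a median of 60.3% against 52.7% for all promoters, which bears on how often such words occur. This median was not taken for genes past the signal filter, and the part of base composition in the word shares was not tested. A match is a description of the letters and not a bound site. The promoters of 3 genes are shown for genes whose values are described below, with ETS and EGR words in capitals: Snrpb2 (chr2:143062819-143063118, plus strand, 2 ETS words), Srsf9 (chr5:115326927-115327226, plus strand, 1 EGR word) and Srsf10 (chr4:135855821-135856120, plus strand, neither word).
Snrpb2: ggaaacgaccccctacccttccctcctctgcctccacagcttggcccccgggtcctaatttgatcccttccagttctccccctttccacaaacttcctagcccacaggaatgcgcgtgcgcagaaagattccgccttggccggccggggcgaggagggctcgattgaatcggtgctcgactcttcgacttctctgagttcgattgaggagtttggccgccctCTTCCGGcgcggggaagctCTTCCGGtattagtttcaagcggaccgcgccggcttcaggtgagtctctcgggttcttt
Srsf9: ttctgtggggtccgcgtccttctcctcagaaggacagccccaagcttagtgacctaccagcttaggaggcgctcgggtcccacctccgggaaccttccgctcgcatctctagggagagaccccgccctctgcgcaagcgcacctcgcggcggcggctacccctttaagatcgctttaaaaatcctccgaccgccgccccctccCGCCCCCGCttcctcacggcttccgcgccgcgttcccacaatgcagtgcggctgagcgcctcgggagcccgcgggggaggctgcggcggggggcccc
Srsf10: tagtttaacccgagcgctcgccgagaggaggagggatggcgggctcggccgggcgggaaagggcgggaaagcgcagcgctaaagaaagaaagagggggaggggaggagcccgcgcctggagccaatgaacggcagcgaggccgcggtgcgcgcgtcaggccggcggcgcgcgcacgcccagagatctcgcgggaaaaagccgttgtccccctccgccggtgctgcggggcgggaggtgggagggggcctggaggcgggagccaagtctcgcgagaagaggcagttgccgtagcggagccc

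Stimulation with αCD3 left the splicing genes close to their mock levels. Over the 6 mice the median change of the 51 genes was 0.04 on the log2 scale, against −0.01 for all 9478 probe sets tested, with 31 genes above 0 (60.8%, against 48.4% of all probe sets) and 20 below. The values ran between −0.55 for Snrp1c-ps2 and 0.40 for Srsf10. None of the 51 genes was called by limma at an adjusted p of 0.05, against 0.359% of all probe sets, and 1 gene, Srsf10, had an unadjusted p under 0.05, against 7.75% of all probe sets. No gene reached a mean αCD3 to mock ratio of 2, which 658 probe sets (6.94%) did, or fell to 0.5 or below, which 8 (0.0844%) did. These ratios are arithmetic means over the 6 mice of signals without the added 50, so noise in weak signals pushes them upward. With 50 added, the 95th percentile of the log2 change over all probe sets was 0.42.

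The 95% interval of the 6-mouse change lay within 1 log2 unit either side of 0 for 50 of the 51 genes (98%), against 91.7% of all probe sets, and within 0.5 for 45 genes (88.2%), against 52.2%. The exceptions to the narrower bound were Srsf10, Snrp1c-ps2, Sf3a1, Sf3b3, Snrpb2 and U2af1. The splicing genes also varied little across the whole design. Their median SD of log2 signal over the 12 arrays was 0.186, against 0.303 for all probe sets, and for 20 genes (39.2%) the highest of the 12 signals was under 1.5 times the lowest, against 13.8% of all probe sets. Their probe sets had a median mean signal of 1129, against 355 for all probe sets, and the part of this brightness in the low SD was not tested.

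**Figure D1:**
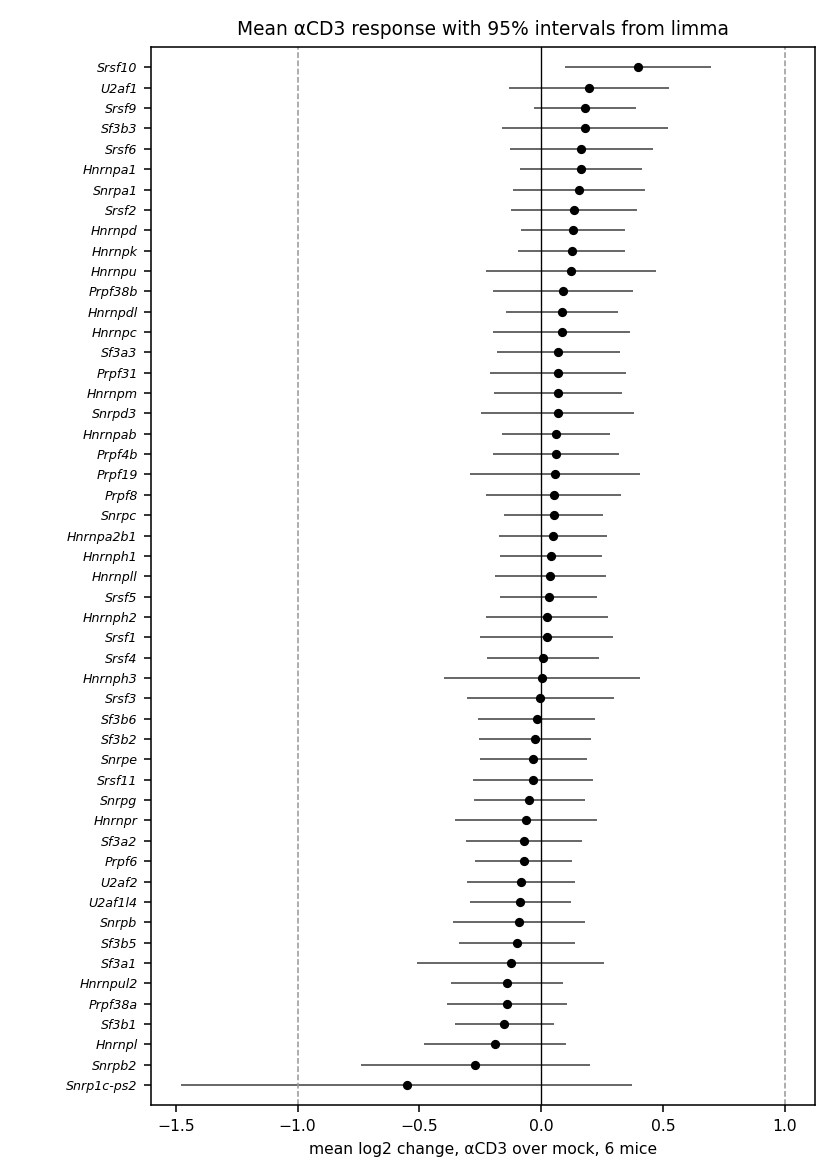
Mean log2 change of each splicing gene, αCD3 over mock, over 6 mice (points) with 95% intervals from limma (lines), sorted by the change; dashed lines mark 1 log2 unit either side of 0. The interval of Snrp1c-ps2 alone reaches past a dashed line.

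The mice differed little in this. The median change of the 51 genes was −0.02 and 0.04 in MED23 null mice 1 and 2, −0.02 and 0.09 in Lck-Cre mice 1 and 2, and −0.05 and 0.03 in Med23flox/flox mice 1 and 2. No gene was higher after αCD3 in all 6 mice, as 3.61% of all probe sets were, and 1 gene, Sf3b1, was lower in all 6, as 2.17% were. In the 4 control mice alone, the signals of Srsf10, Srsf9, Hnrnpk and Prpf4b were higher after αCD3 in 4 of 4 and those of Snrp1c-ps2, Sf3b1 and U2af1l4 lower in 4 of 4. That was 7.84% and 5.88% of the 51 genes. The matching shares of all probe sets were not counted, so these genes cannot be said to stand out. Among the controls 0 of 51 genes were called (0.148% of all probe sets), and Srsf10 and Snrp1c-ps2 had an unadjusted p under 0.05 (7.78%). In the MED23 null mice 0 of 51 were called (0.0317%) and none had an unadjusted p under 0.05 (5.36%).

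**Figure D2:**
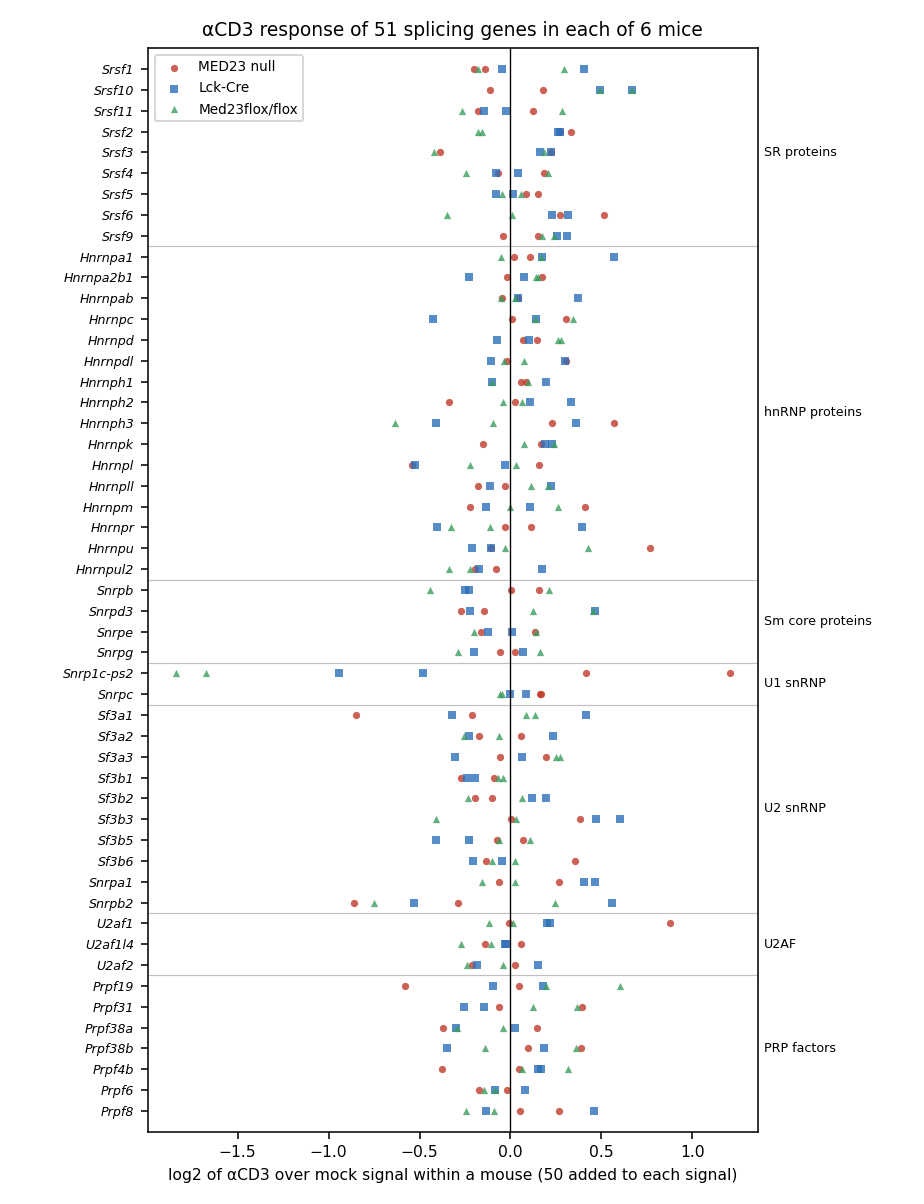
Log2 of the αCD3 signal over the mock signal within each of 6 mice (x axis; 50 added to each signal) for 51 splicing genes grouped by role; circles are MED23 null, squares Lck-Cre and triangles Med23flox/flox mice. Most points lie within 0.5 of 0, and Snrp1c-ps2 is the gene whose null and control mice lie on opposite sides.

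Among the SR proteins, which bind exonic enhancers and recruit the spliceosome, 7 of 9 genes lay above 0 over the 6 mice, with a median of 0.03. Srsf10, an SR protein that turns into a splicing repressor when dephosphorylated, had the most positive value. Its αCD3 signals were 363 and 470 in MED23 null thymocytes, 535 and 619 in Lck-Cre thymocytes and 483 and 543 in Med23flox/flox thymocytes. The mock signals were 396 and 410 in MED23 null, 319 and 426 in Lck-Cre and 285 and 372 in Med23flox/flox thymocytes. Both MED23 null αCD3 arrays were thus below all 4 control αCD3 arrays, while the mock arrays overlapped.

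The αCD3 change of Srsf10 was 0.40 over the 6 mice (SE 0.13, limma adjusted p = 0.481). It was 0.03 in the MED23 null mice, with a 95% interval of −0.37 to 0.43, and 0.58 in the controls, with an interval of 0.30 to 0.86 (adjusted p = 0.201), and was higher after αCD3 in 4 of 4 controls and in 1 of 2 MED23 null mice. The response of the null mice minus that of the controls was −0.55 (−1.03 to −0.06, unadjusted p = 0.0333, adjusted p = 0.957). A second probe set for Srsf10, with a mean signal of 274, did not follow it: its response was 0.18 in the null mice and −0.21 in the controls, a difference of 0.39. The value therefore rests on 1 of 2 probe sets for the gene.

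Srsf9, a short SR protein, showed the same arrangement with smaller steps. Its αCD3 signals were 1316 and 1394 in MED23 null thymocytes, 1514 and 1692 in Lck-Cre and 1580 and 1864 in Med23flox/flox thymocytes, and its mock signals 1355 and 1248 in MED23 null, 1213 and 1410 in Lck-Cre and 1398 and 1570 in Med23flox/flox thymocytes. The αCD3 signals of the null mice lay below all 4 controls. Its change was 0.06 in the null mice (−0.32 to 0.43) and 0.24 in the controls (−0.02 to 0.51), and its αCD3 difference was −0.23 against Lck-Cre and −0.33 against Med23flox/flox (adjusted p = 0.999 and 0.729), or −0.16 without Lck-Cre replicate 2 and −0.22 without Med23flox/flox replicate 2. Srsf2, the SR protein SC35, had αCD3 signals of 6175 and 6724 in MED23 null, 7173 and 6832 in Lck-Cre and 5142 and 6606 in Med23flox/flox thymocytes. In mock-treated cells its signals were 4885 and 5569 in MED23 null, 5968 and 5652 in Lck-Cre and 5822 and 7374 in Med23flox/flox thymocytes, so the null arrays were below all controls. The differences were −0.15 against Lck-Cre and −0.33 against Med23flox/flox, neither called. The other probe set of Srsf2 was 0.20 and 0.23 higher in the null mice against the same 2 genotypes. Srsf6 had the largest positive difference in response among SR genes, 0.34 (−0.27 to 0.96), which was 0.21 without Med23flox/flox replicate 1, 0.22 without MED23 null replicate 1 and 0.12 against the Lck-Cre controls alone.

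**Figure D3:**
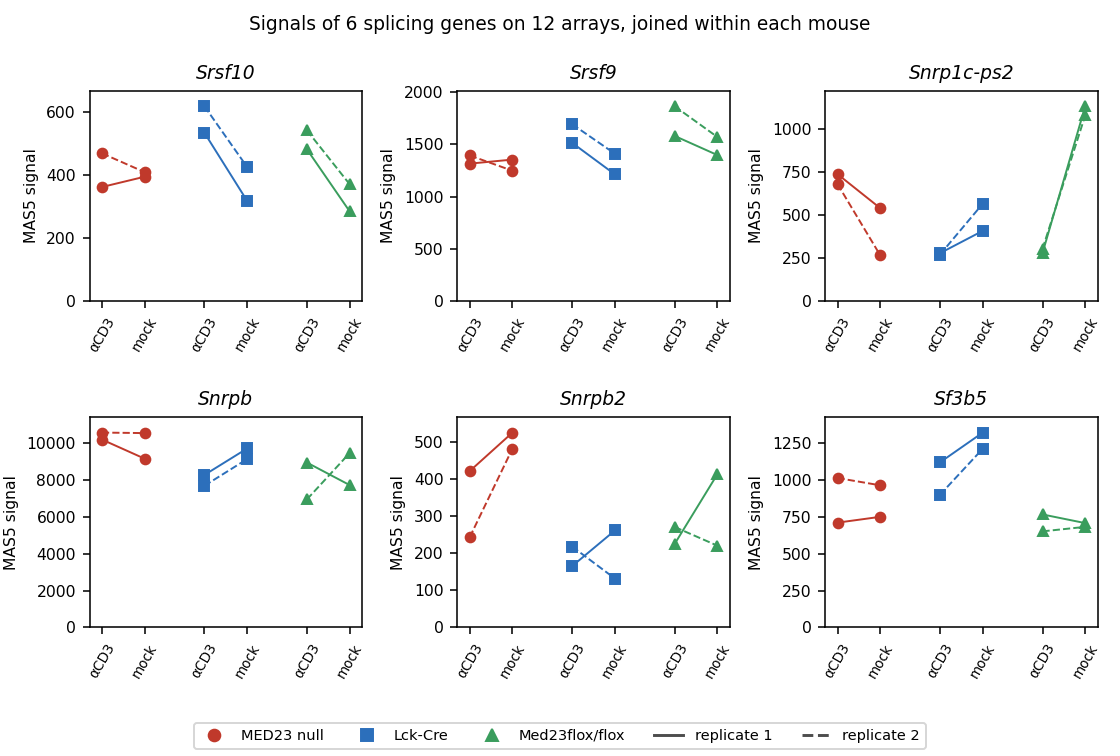
MAS5 signals (y axis, linear from 0) of 6 splicing genes on 12 arrays, αCD3 left of mock for each genotype, with a line joining the 2 arrays of a mouse. With αCD3, Snrp1c-ps2 is higher in both MED23 null mice and lower in all 4 control mice, and Srsf10 and Srsf9 are higher in all 4 control mice.

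The hnRNP proteins, abundant RNA-binding proteins that often silence exons, had 13 of 16 genes above 0 over the 6 mice, with a median of 0.05 and values of −0.19 for Hnrnpl to 0.16 for Hnrnpa1, and none with an unadjusted p under 0.05. Hnrnpa2b1, which encodes A2 and B1 isoforms that bind UAG-containing RNA, had αCD3 signals of 9043 and 9098 in MED23 null thymocytes against 7876 to 8811 in controls. It differed by 0.13 from Lck-Cre and by 0.08 from Med23flox/flox, neither called. In mock-treated cells its signals were 9159 and 8076 in MED23 null thymocytes and 7563 to 9241 in controls, where the groups overlapped. The other probe set of Hnrnpa2b1, with a mean signal of 639, went the other way, with αCD3 signals of 533 and 623 in MED23 null thymocytes, below the 663 to 898 of the controls, and differences of −0.39 against both genotypes. Hnrnpab was the hnRNP gene below all control arrays in mock-treated null cells, with signals of 1197 and 1269 against 1278 to 1421. The differences were small, −0.10 against Lck-Cre and −0.16 against Med23flox/flox (limma, adjusted p = 0.947 and 0.849). The weaker probe set of Hnrnpab, with a mean signal of 92.3, overlapped, at 132 and 34.8 in MED23 null and 27.2 to 110 in control thymocytes. It differed by 0.16 from Lck-Cre and −0.01 from Med23flox/flox. Hnrnpl and Hnrnpll, the regulators of CD45 exon use, changed by −0.19 and 0.04 over the 6 mice. Hnrnph3 had a difference in response of 0.59 (−0.17 to 1.36), with changes of 0.57 and 0.23 in the null mice and of −0.63 to 0.36 in the controls.

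The 4 Sm core genes measured had changes of −0.09 (Snrpb) to 0.07 (Snrpd3) over the 6 mice. Snrpb, which encodes the SmB proteins, was higher in αCD3-treated MED23 null thymocytes, at 10176 and 10554, than in the 4 αCD3-treated controls, at 6937 to 8930. Its mock signals were 9140 and 10527 in MED23 null thymocytes and 7712 to 9694 in controls and overlapped. The αCD3 difference was 0.38 against Lck-Cre (−0.16 to 0.92) and 0.39 against Med23flox/flox (−0.14 to 0.93), with adjusted p = 0.999 and 0.702, and its probe set carries a suffix for relaxed probe selection. Without Med23flox/flox replicate 2 the second difference was 0.21. A weak probe set of Snrpb, with a mean signal of 42.2, gave −0.68 and −0.30 for the same differences. It passed the signal filter only through mock-treated null cells, with signals of 131 and 74.7. Its αCD3 signals were 8.6 and 9.5 in MED23 null and 8.2 to 103 in control thymocytes, so its values say little about Snrpb.

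The U1 snRNP was read by Snrpc, which encodes U1-C, the subunit that contacts the splice donor, and by Snrp1c-ps2, annotated as a pseudogene of it. Snrpc was the steadiest of the 51 genes, with an SD of 0.0742 over the 12 arrays. Its αCD3 signals were 1684 and 1737 in MED23 null and 1497 to 1678 in control thymocytes, and its mock signals 1500 and 1543 in MED23 null and 1502 to 1678 in control thymocytes. Snrp1c-ps2 was the most variable, with an SD of 0.710, and its probe set has a suffix for probes shared within a gene family, so the transcript it reads is uncertain.

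The αCD3 signals of Snrp1c-ps2 were 739 and 681 in MED23 null thymocytes, 279 and 271 in Lck-Cre and 280 and 304 in Med23flox/flox thymocytes. Its mock signals were 541 and 267 in MED23 null, 409 and 567 in Lck-Cre and 1133 and 1080 in Med23flox/flox thymocytes. After αCD3 the null arrays were both more than double any control array, whereas in mock-treated cells the 2 control genotypes differed from each other and the null arrays overlapped the Lck-Cre arrays. The αCD3 difference was 1.22 against Lck-Cre (0.74 to 1.7, unadjusted p = 0.000774, adjusted p = 0.612) and 1.15 against Med23flox/flox (0.67 to 1.63, unadjusted p = 0.00107, adjusted p = 0.455). The response was 0.81 in the null mice and −1.23 in the controls (−0.71 with the Lck-Cre mice alone), with opposite signs in 2 of 2 and 4 of 4 mice, an arrangement that 1.65% of all probe sets shared, and none of the 51 genes had the reverse one, which 1.83% did. The difference in response was 2.04 (0.97 to 3.12, unadjusted p = 0.00299, adjusted p = 0.809).

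The 10 U2 snRNP genes encode SF3A and SF3B, which hold the branch point, and the proteins A′ and B″, encoded by Snrpa1 and Snrpb2. Over the 6 mice 3 lay above 0 and 7 below, with a median of −0.05. Sf3b1, which encodes the SF3B subunit at the branch point, had αCD3 signals of 2959 and 3437 in MED23 null, 3231 and 3751 in Lck-Cre and 2817 and 3016 in Med23flox/flox thymocytes. Its mock signals were 3580 and 3661 in MED23 null, 3707 and 4443 in Lck-Cre and 2951 and 3104 in Med23flox/flox thymocytes. It was lower after αCD3 in each of the 6 mice, by −0.15 on average (SE 0.09, adjusted p = 0.745), and the other probe set of the gene changed by −0.04 with 1 mouse higher.

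Snrpb2 was the splicing gene above all 4 controls in mock-treated MED23 null thymocytes, with 527 and 483 in MED23 null, 262 and 132 in Lck-Cre and 414 and 221 in Med23flox/flox thymocytes. Its αCD3 signals, 423 and 244 in MED23 null thymocytes and 166 to 271 in controls, overlapped. The mock difference was 1.22 against Lck-Cre (0.33 to 2.11, adjusted p = 0.545) and 0.64 against Med23flox/flox (−0.25 to 1.54, adjusted p = 0.737). The second value was 1.03 without Med23flox/flox replicate 1 and 0.26 without replicate 2. The other Snrpb2 probe set gave −0.12 and 0.31, and both are family or rule-relaxed probe sets. Sf3b5, a small SF3B subunit chosen after its values were seen, had mock signals of 749 and 962 in MED23 null, 1319 and 1210 in Lck-Cre and 706 and 681 in Med23flox/flox thymocytes. It was 0.82 higher in Lck-Cre than in Med23flox/flox mock-treated cells (0.34 to 1.30, adjusted p = 0.603), so the 2 control genotypes were themselves apart. Sf3a1 had a difference in response of −0.61 (−1.31 to 0.09), with a signal of 286 in 1 αCD3-treated null array and 456 to 682 on the other 11 arrays. Without the null mouse of that array, replicate 2, the difference was −0.29, and without null replicate 1 it was −0.93. Sf3a2 had αCD3 signals of 4098 and 4303 in MED23 null and 3743 to 4080 in control thymocytes, and on its other probe set 1730 and 1789 in MED23 null and 931 to 1854 in control thymocytes, where the groups overlapped.

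The 3 U2AF genes, whose products read the polypyrimidine tract and the AG at the intron end, changed by 0.20 (U2af1), −0.08 (U2af2) and −0.09 (U2af1l4) over the 6 mice. U2af2 had αCD3 signals of 5417 and 5353 in MED23 null and 5117 to 6331 in control thymocytes, and mock signals of 5325 and 6200 in MED23 null and 5260 to 6412 in control thymocytes, so that the groups overlapped in both treatments.

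The 7 measured Prpf genes ran between −0.14 (Prpf38a) and 0.09 (Prpf38b) over the 6 mice. Prpf8, the scaffold of the catalytic core, had αCD3 signals of 2564 and 2468 in MED23 null and 2132 to 2654 in control thymocytes and changed by 0.05. Prpf31, which bridges the U4/U6 and U5 snRNPs, was below all controls in mock-treated null cells, with 352 and 341 against 366 to 513, and differed by −0.50 from Lck-Cre (adjusted p = 0.664) and by −0.24 from Med23flox/flox (adjusted p = 0.816). The second value was −0.40 without Med23flox/flox replicate 1 and −0.07 without replicate 2. Prpf38a and Prpf38b, related to a yeast factor needed for spliceosome activation, were above all controls in αCD3-treated null cells, at 642 and 698 against 565 to 636 for Prpf38a and at 1047 and 992 against 690 to 876 for Prpf38b. Against Lck-Cre and Med23flox/flox the differences were 0.15 and 0.13 for Prpf38a and 0.30 and 0.37 for Prpf38b, none called. Prpf19, a ubiquitin ligase of the spliceosome, had αCD3 signals of 623 and 500 in MED23 null, 572 and 569 in Lck-Cre and 856 and 878 in Med23flox/flox thymocytes, and differed by −0.59 between null and Med23flox/flox and by −0.56 between Lck-Cre and Med23flox/flox cells. The Lck-Cre arrays and the null arrays were on the same side of the Med23flox/flox arrays, while its other probe set gave 0.09 and −0.57. For Prpf39, a weak probe set that was not chosen, singled out after its values were seen, had αCD3 signals of 132 and 53.0 in MED23 null and 19.3 to 55.9 in control thymocytes, and mock signals of 96.8 and 43.2 in MED23 null and 51.4 to 123 in control thymocytes. Its αCD3 change was 0.23 in the null mice and −0.67 in the controls (limma, adjusted p = 0.168), and the difference in response was 0.90 (unadjusted p = 0.00534, adjusted p = 0.809). This probe set passed the signal filter only through mock-treated Med23flox/flox cells, with signals of 123 and 95.9. Such a filter favours a fall in the controls, so these p-values cannot be taken at face value.

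Comparing MED23 null with each control genotype, no splicing gene was called in either treatment, and neither was any of the 9478 probe sets (0% in each of the 4 comparisons, and 0% between Lck-Cre and Med23flox/flox in both treatments). In αCD3-treated cells the median difference was −0.06 against Lck-Cre and 0.07 against Med23flox/flox, where 1 gene (against 4.83% of all probe sets) and 2 genes (against 7.72%) had an unadjusted p under 0.05. In mock-treated cells it was −0.02 against each, with 3 genes (7.3% of all probe sets) and 1 gene (7.34%). Lck-Cre against Med23flox/flox, 2 controls with intact Med23, gave 1 gene in αCD3-treated cells (5.93%) and 2 in mock-treated cells (5.64%). The difference in response between null and control mice gave 0 calls (0%), 2 genes with an unadjusted p under 0.05 (5.13%) and a median of 0.02. The intervals were wide here: for the difference in response 42 of the 51 lay within 1 log2 unit of 0 (82.4%, against 50.5% of all probe sets) and 0 within 0.5.

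**Figure D4:**
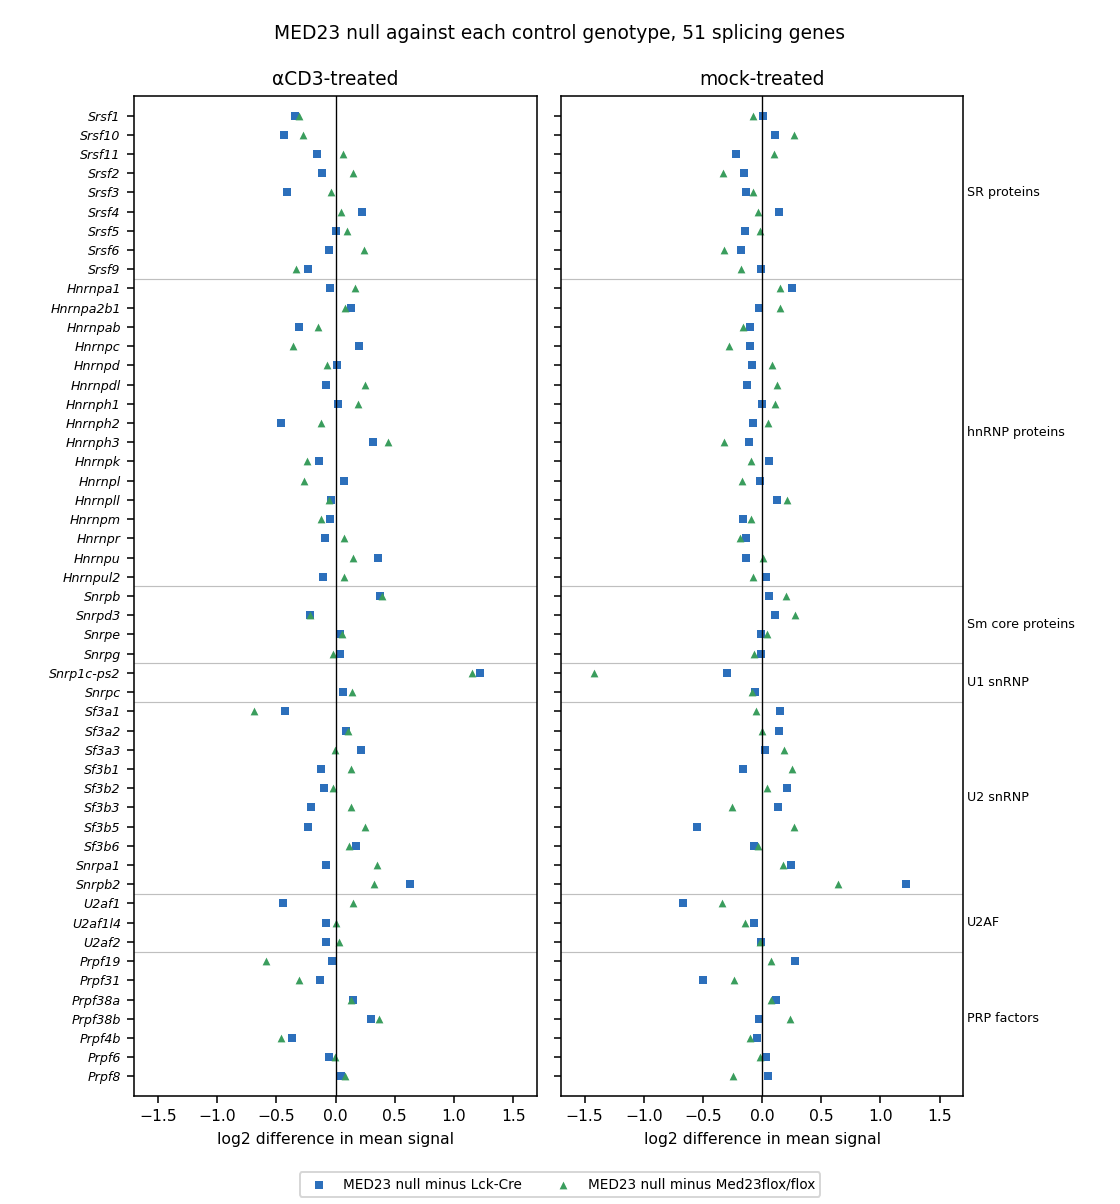
Log2 difference in mean signal of MED23 null thymocytes minus Lck-Cre (squares) and minus Med23flox/flox thymocytes (triangles) for 51 splicing genes, αCD3-treated on the left and mock-treated on the right. Snrp1c-ps2 sits above 1 against both controls in αCD3-treated cells, and Snrpb2 is above 0.6 against both in mock-treated cells.

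In αCD3-treated cells 7 genes had both null arrays above all 4 controls (13.7%, against 6.9% of all probe sets) and 2 below (3.92%, against 8.61%). The 7 were Hnrnpa2b1, Snrpb, Snrp1c-ps2, Snrpc, Sf3a2, Prpf38a and Prpf38b, each read by its chosen probe set. The second tested probe set of Hnrnpa2b1 lay below all controls, and those of Snrpb and Sf3a2 overlapped the controls. In mock-treated cells 1 gene was above (1.96%, against 9.27%) and 3 below (5.88%, against 8.44%). No gene was on the same side in both treatments. The matching share of all probe sets was not counted, so this cannot be said to set the splicing genes apart. Other measures also differed between null and control arrays, some of them in 1 treatment only. The summed signal of 11 T cell markers, which include the αCD3-responsive Cd5, was 94454 to 95010 in αCD3-treated null and 103437 to 108658 in αCD3-treated control thymocytes, and 89865 to 95977 in mock-treated null and 110114 to 114453 in mock-treated control thymocytes. Myeloid markers summed to 1597 to 1674 in αCD3-treated null and 1307 to 1506 in αCD3-treated control thymocytes, and to 1503 to 1585 in mock-treated null and 1088 to 1447 in mock-treated control thymocytes. In mock-treated cells B cell markers summed to 1697 to 1925 in null and 1230 to 1605 in control thymocytes, and epithelial markers to 602 to 619 in null and 654 to 1154 in control thymocytes. In αCD3-treated cells both overlapped, at 1524 to 1836 in null and 1390 to 2238 in control thymocytes for B cell markers and at 619 to 644 in null and 574 to 751 in control thymocytes for epithelial markers. The sums include markers under the signal filter, which 5 of 6 myeloid, 4 of 5 B cell and only 2 of 6 epithelial markers passed. The median mock difference of those 2 was −0.04 against Lck-Cre and −0.45 against Med23flox/flox. Between Lck-Cre and Med23flox/flox it was −0.42. The summed signal of the 4 erythroid markers on the array, none at 0, was 15872 to 38429 in αCD3-treated null and 6345 to 15545 in αCD3-treated control thymocytes, and 15071 to 37312 in mock-treated null and 6418 to 16806 in mock-treated control thymocytes, most of it from the globin gene Hba-a1. The 3′ to 5′ signal ratio of the actin control, a measure of RNA quality, was 1.61 to 1.90 in αCD3-treated null and 1.35 to 1.41 in αCD3-treated control thymocytes. In mock-treated cells it overlapped, at 1.44 to 1.63 in null and 1.35 to 1.60 in control thymocytes. The Gapdh ratio overlapped in both treatments, at 0.636 to 0.766 in null and 0.599 to 0.648 in control thymocytes with αCD3. Its mock values were 0.635 to 0.664 in null and 0.580 to 0.693 in control thymocytes. The part of these markers and ratios in the differences of the splicing genes was not tested.

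Of 46 further spliceosome genes 32 were measured, and of the other lists 8 SR protein kinases and phosphatases, 37 splicing regulators, 8 genes of snRNP assembly and 15 of the exon junction and mRNA export were, and limma called none of these after αCD3 over the 6 mice, with 0, 0, 2, 1 and 0 of them at an unadjusted p under 0.05, against 0.359% called and 7.75% under an unadjusted 0.05 over all probe sets. The median changes of these lists were −0.02, −0.03, 0.02, 0.10 and 0.05. Among the kinases that phosphorylate SR proteins, Srpk1 was lower after αCD3 in each of the 6 mice, by −0.22 (SE 0.11, adjusted p = 0.675). Prmt5, which methylates Sm proteins before snRNP assembly, and its partner Wdr77 had values of 0.68 and 0.35 (adjusted p = 0.582 and 0.675), higher in 4 of 6 mice each. Of the regulators, Rbfox2 had a value of 0.60 with 5 of 6 mice higher (adjusted p = 0.626), and Luc7l3, a U1-associated protein, had 0.23 with 6 of 6 higher (adjusted p = 0.578). Of 21 cell cycle genes measured none was called, 1 (Rrm2, a ribonucleotide reductase subunit, −0.22) had an unadjusted p under 0.05, and the median was 0.00.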

How the data were processed

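Affymetrix mouse expression arrays were hybridised with RNA of thymocytes from 6 mice, mock-treated and αCD3-treated. The deposited values are intensities, MAS5 signals per probe set that the authors computed; the MAS5 version and scaling are not given in the sources used here. Groups came from sample titles; the descriptions of Lck-Cre replicate 2 αCD3 and Med23flox/flox replicate 1 mock share 1 identifier, which leaves a doubt about these 2 arrays. Of 12488 probe sets 66 were controls. Each array was scaled by its trimmed mean (2% off each end), 50 was added, and log2 values were tested with limma (version 3.58.1; R 4.3.3) over the 9478 probe sets with a mean signal of at least 100 in 1 of the 6 conditions, with Benjamini-Hochberg adjustment and a threshold of 0.05. Replicates are separate mice. The αCD3 changes were paired by the mouse named in the labels, and genotype comparisons were unpaired. Probe sets with several gene symbols were left out. The genes, lists and tests were chosen with earlier results of these data known. Genes named in full were any called; those with 1 sign in all 6 mice; the largest differences without overlap between null and control arrays; the 3 strongest differences in response each way; and the highest signal of each role class. Genes with an unadjusted p under 0.05 were added after their values were seen. The fits were tested on simulated data. Alternatives were pseudocounts of 16 and 100, no filter or a filter of 200, no scaling, other probe sets, blocks and leaving out mice.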

Additional observations from a re-analysis of the deposited data

Results flagged for a closer look

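The αCD3 response of Snrp1c-ps2 differed between MED23 null and control mice by 2.04 on the log2 scale, because both null mice had higher signals after αCD3 and all 4 control mice lower ones. The test of the difference gave an adjusted p of 0.809 (limma), and the values under the alternatives were 1.52 to 2.57. Its probe set is a family probe set, and the parent gene Snrpc gave 0.17.

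The mock signal of Sf3a1 in Lck-Cre mouse 2 lay apart from that of the other control mice, with a log2 value of 8.98 against 9.38 to 9.42. The gap took up 0.906 of the range of the 4 mice. Chance alone gives such a gap in about 1 group in 20, and 63 groups were examined.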

How the results depend on the processing

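No splicing gene was called in any of 161 counts of calls, each for 1 alternative setting in 1 of the 10 comparisons. In the genotype comparisons, a fit without 1 mouse leaves 1 array of its genotype and assumes that it varies like the other groups. Without Med23flox/flox replicate 2, the αCD3 array left is the one that stood apart. The count of calls was 0 to 0 when each mouse was left out in turn, Med23flox/flox replicate 1 with the array that stood apart included. Counts of calls stayed at 0 without the replicate block by mouse, where the smallest adjusted p of a gene was 0.345 for the αCD3 change of 6 mice, and at 0 with the replicate number as a block in the genotype comparisons. The 36 gene and comparison pairs named kept their direction and their side of the threshold in 547 of 547 alternative values on the same probe set. That says little about robustness. Many pairs were picked for null and control arrays without overlap or for 1 sign in all mice, which leaves little room for a reversal. None of the pairs was called in the main fit, and the scale factors were close to 1. The other probe sets of the named genes, an alternative added after the data were seen, were opposite in sign in 12 of 17 values over 7 genes. For Srsf10 they gave −0.083 for the αCD3 change of 6 mice, −0.21 for that of controls, 0.39 for the difference in response and 0.32 for αCD3-treated null against Med23flox/flox. In mock-treated null cells they gave −0.12 for Snrpb2 against Lck-Cre, 0.20 and 0.23 for Srsf2 against Lck-Cre and Med23flox/flox, and 0.16 for Hnrnpab against Lck-Cre. In αCD3-treated null cells they gave −0.68 and −0.30 for Snrpb against the same genotypes and 0.086 for Prpf19 against Med23flox/flox, whose difference in response was 0.81. The Snrpb values are among the 12 but come from the weak probe set described above, and say little. The median of the genes ran between −0.07 and 0.14 over 160 alternative values, 8 of which moved by over 1 SD. With 2 null mice the precision was limited, and the median half-width of the 95% interval of the difference in response was 0.56 log2 units over the genes.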
